A study of Mus musculus with 9 samples.

Results

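The presynaptic active zone scaffolds are 10 genes chosen by name, Bsn, Pclo, Rims1, Rims2, Erc1, Erc2, Unc13a, Unc13b, Ppfia3 and Rimbp2, out of 37620 gene identifiers counted in each sample. All 10 were found by symbol and all passed the filter on low counts. RNA sequencing compared ribosome-associated RNA of CA3/CA2 PV INs from 5 shNT and 4 shRNA samples. All mice were PV-Cre; Rpl22HA/HA animals, so that Cre under control of the parvalbumin gene switches on the HA-tagged ribosomal protein in PV INs, and all received a lentivirus in the DG. In the shNT group the virus carried a non-targeting shRNA, and in the shRNA group it carried an shRNA against Ablim3, a molecular brake on mossy fiber inputs to PV INs. Each sample was a pool of hippocampal CA3/CA2 tissue from 6 mice, 2 months old and taken 2 weeks after injection. The comparison asks which transcripts differ in PV INs when their mossy fiber inputs are increased, and the knockdown itself was in another cell type than the one sequenced.

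The active zone is the dense protein lattice on the inner face of the presynaptic membrane where synaptic vesicles dock and fuse. Bassoon and Piccolo are giant proteins that span the lattice, RIM proteins tether vesicles and calcium channels, ELKS (Erc) and liprin-α proteins tie the scaffold together, RIM-binding proteins link RIMs to calcium channels, and Munc13 proteins prime vesicles for fusion. In fast-spiking PV INs this machinery holds calcium channels close to vesicles, which gives rapid and precisely timed GABA release.

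Several samples stood apart, and results were therefore also computed without them. Of the uniquely aligned reads, 18.6% in shNT replicate 2 (9.76% to 11.3% in the rest of its group) and 27.2% in shRNA replicate 4 (12.4% to 19.8%) lay outside annotated exons. Although the methods describe pools of male and female mice, shNT replicate 1 had 3 reads of Xist, and shNT replicate 5 had 5 reads over 4 Y-linked genes. The other 7 samples had at least 324 reads of Xist and 1096 of the Y-linked genes. Counts on genes ran from 18281719 to 34578837 per sample, and the lowest count of any of the 10 genes in any sample was 145 (Unc13b), so counting error was small beside the spread between samples. Parvalbumin (Pvalb) averaged 998 ± 287 (shNT) and 526 ± 162.7 CPM (shRNA; counts per 1e6 counts on genes, TMM-normalized; SD over 5 and 4 pools). Slc17a7, the vesicular glutamate transporter of excitatory neurons, which PV INs should lack, had 258 ± 83.4 (shNT) and 433 ± 59.1 CPM (shRNA; SD over 5 and 4 pools). Reads of a gene of other cells were thus present in both groups.

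Promoter sequence was on hand for 9 of the 10 genes (RefSeq, GRCm38.p6), and that of Rims2 was not used here. The 250 bases before the start of 4 of them are shown: Pclo, the gene of the list that was called, Erc1 and Erc2, the relatives whose log2 fold changes lay furthest apart, and Unc13a, a gene whose groups did not overlap. They lie at chr5:14514668-14514917 on the plus strand (Pclo), chr6:119848151-119848400 on the minus strand (Erc1), chr14:27622157-27622406 on the plus strand (Erc2) and chr8:71671758-71672007 on the minus strand (Unc13a). Capitals mark GGGCGG (a GC box) and TGACG (the half-site of the cAMP response element, CRE), read on either strand, and neighbouring matches run together.
Pclo: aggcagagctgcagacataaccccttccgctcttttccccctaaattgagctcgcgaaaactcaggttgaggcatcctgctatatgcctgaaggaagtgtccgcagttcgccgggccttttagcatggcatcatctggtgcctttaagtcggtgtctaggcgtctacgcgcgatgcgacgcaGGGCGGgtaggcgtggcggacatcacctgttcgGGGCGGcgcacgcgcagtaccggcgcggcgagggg
Erc1: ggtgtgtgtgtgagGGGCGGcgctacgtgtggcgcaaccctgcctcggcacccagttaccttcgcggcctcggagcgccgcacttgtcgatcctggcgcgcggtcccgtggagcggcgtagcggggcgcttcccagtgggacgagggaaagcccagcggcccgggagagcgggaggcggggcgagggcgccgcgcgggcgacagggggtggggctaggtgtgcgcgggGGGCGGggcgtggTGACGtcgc
Erc2: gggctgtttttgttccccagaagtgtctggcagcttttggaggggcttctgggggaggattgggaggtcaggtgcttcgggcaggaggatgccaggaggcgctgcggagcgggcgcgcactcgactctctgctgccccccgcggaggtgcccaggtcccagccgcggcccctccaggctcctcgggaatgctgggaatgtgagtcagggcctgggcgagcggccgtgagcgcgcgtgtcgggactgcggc
Unc13a: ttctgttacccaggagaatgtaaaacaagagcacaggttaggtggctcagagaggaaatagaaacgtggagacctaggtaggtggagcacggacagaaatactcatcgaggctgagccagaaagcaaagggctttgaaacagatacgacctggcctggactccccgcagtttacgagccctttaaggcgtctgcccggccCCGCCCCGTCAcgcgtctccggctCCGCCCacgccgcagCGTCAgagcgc
A GC box stood in 6 of the 9 windows, against 32.7% of 32851 promoter windows of the same length in the table. The CRE half-site stood in 3 of 9, in Erc1, Unc13a and Ppfia3, against 17.8% of all windows. The full CRE TGACGTCA, which holds the half-site, was in 0 of 9 (1.55% of all windows), as were GCGGGGGCG, a site of Egr factors (2.57%), and TATAAA (12.4%), while CCAAT was in 3 of 9 (33.8%). GC content ran from 58.0% to 76.0%, above the median of all windows (52.4%). Erc2 held neither the GC box nor the half-site, whereas Pclo and Erc1 each held 2 GC boxes.

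All 10 active zone genes had a positive log2 fold change (shRNA over shNT), as had 57.9% of the 15069 genes tested, and 1 of the 10, Pclo, was upregulated at an FDR under 0.05 with a change of at least 1.5-fold (edgeR quasi-likelihood test, Benjamini-Hochberg adjustment). Over all genes tested 1.74% were called higher by this rule and 0.0133% lower (1.75% in all). With the FDR limit at 0.1, 5 of the 10 passed in the higher direction, Pclo, Erc2, Unc13a, Unc13b and Rimbp2, against 12.7% of all genes. The median log2 fold change of the 10 was 0.75, against 0.11 over all genes tested. In 5 of the 10, Pclo, Erc1, Erc2, Unc13a and Unc13b, the lowest shRNA sample exceeded the highest shNT sample, which held for 8.97% of all genes (6.68% in the opposite direction). At an unadjusted p under 0.05, 9 of the 10 were higher and 0 lower in the shRNA samples (20.7% and 13.4% of all genes). Without shNT replicate 2 and shRNA replicate 4 the calls were 2, Pclo and Erc2, where 4.75% of all genes were called higher, and 6 of the 10 were higher without overlap, against 16.8% of all genes. Without shNT replicates 1 and 5 there were 0 calls among the 10 and 0 over all genes (edgeR quasi-likelihood test; 5 of the 10 higher without overlap, against 9.61% of all genes; median log2 fold change 0.77). Within the samples named YTa31 (3 of each group) 0 of the 10 were called, as were 0 of all 14475 genes tested there. The median of the 10 was 0.42 (0.011 over all genes), with 0.81 for Pclo and 1.27 for Erc2. Within those named YTa32 (2 shNT and 1 shRNA, so without a test) the log2 difference was positive in 9 of 10, with 1.18 for Pclo, 1.19 for Erc2 and -0.18 for Rims2. The 1 shRNA sample there is replicate 4, which had the most reads outside exons (27.2%). The shNT samples there include replicate 5, which had 5 reads of the Y-linked genes. The share of all genes positive in YTa32 is not given here. Levels by sample are given below in the order of the replicate numbers.

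**Figure D1:**
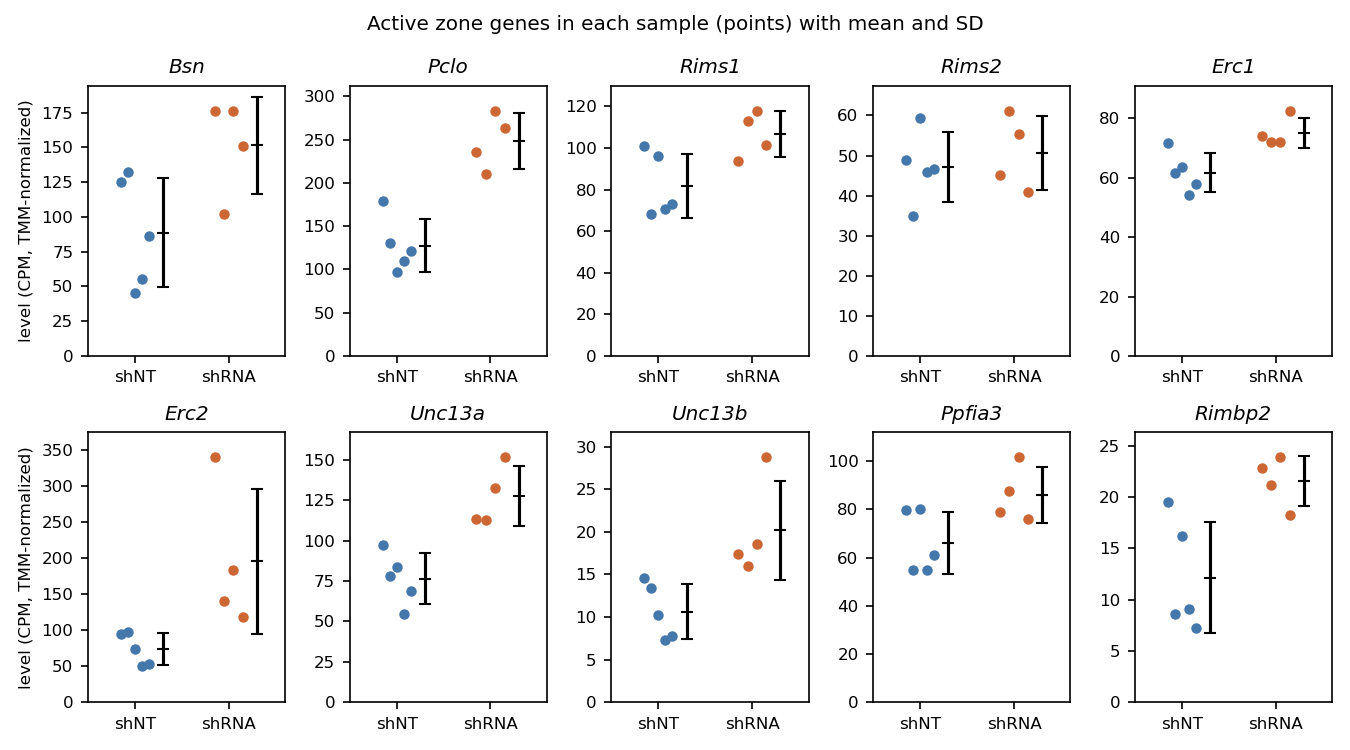
Level of each active zone gene in every sample (CPM, TMM-normalized, linear axes from 0), with points for the 5 shNT and 4 shRNA samples and bars for the mean and SD. In Pclo the shRNA samples lie between 210.1 and 284 CPM, above the highest shNT sample at 179 CPM, whereas in Rims2 the groups overlap.

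Pclo (ENSMUSG00000061601; mm9, chromosome 5 from 14514918 to 14863457) encodes Piccolo, one of the giant scaffold proteins. Its levels in CPM were 179, 130.0, 97.2, 110.2 and 122 in shNT replicates 1 to 5, and 236, 210.1, 284 and 263 in shRNA replicates 1 to 4. The groups did not overlap, and shNT replicate 1 came nearest to the shRNA group. It rose from a mean of 128 ± 31.1 (shNT) to 248 ± 32.1 CPM (shRNA; SD over 5 and 4 pools), by 0.96 on the log2 scale with an SE of 0.19 (FDR = 0.0404 by the quasi-likelihood test of edgeR), or 1.95-fold with a 95% interval from 1.47 to 2.58. When single samples were dropped, the difference stayed between 0.80 and 1.11 (log2) and the FDR between 0.0156 and 0.169 (edgeR quasi-likelihood test). Its call was lost when shNT replicate 3, 4 or 5, or replicate 1, 3 or 4 of the shRNA group, was dropped.

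Bsn (ENSMUSG00000032589; chromosome 9 from 107998354 to 108092715) encodes Bassoon, the partner of Piccolo in the scaffold and in vesicle clustering. The shNT samples, in order of replicate, had 125, 132, 45.2, 55.1 and 86.6 CPM, and the shRNA samples 176, 102, 177 and 151 CPM. The shNT samples were widely spread, and shRNA replicate 2 fell within their range. The means of 88.8 ± 39.5 (shNT) and 152 ± 35.02 CPM (shRNA; SD over 5 and 4 pools) gave a difference of 0.77 (log2) with an SE of 0.31 (FDR = 0.114 by the quasi-likelihood test of edgeR), which did not pass. Exons of F630040L22Rik overlap 11.4% of the exon bases of Bsn, and unstranded counting cannot assign reads that fall only there. The level of Bsn per kb, given below, uses all its exon bases and may therefore be somewhat low.

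Erc2 (ENSMUSG00000040640; chromosome 14 from 28435614 to 29291721), which encodes the brain form of ELKS, had the highest fold change of the list. It had 95.1, 98.4, 74.2, 51.2 and 52.8 CPM in the shNT samples and 341, 140.3, 184.5 and 118.5 CPM in the shRNA samples. The groups did not overlap, and shRNA replicate 1 alone reached 341 CPM while shRNA replicate 4 came nearest to the shNT range. Means of 74.3 ± 22.4 (shNT) and 196 ± 100.4 CPM (shRNA; SD over 5 and 4 pools) gave a difference of 1.40 (log2, SE 0.32), just short of the threshold (FDR = 0.0503 by the quasi-likelihood test of edgeR). Without shRNA replicate 1 the log2 fold change was 0.93, and Erc2 was called when shNT replicate 1 or 2, or replicate 2 or 4 of the shRNA group, was dropped.

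Erc1 (ENSMUSG00000030172; chromosome 6 from 119520822 to 119798168), the widely expressed ELKS gene, had 71.6, 61.6, 63.6, 54.1 and 57.8 CPM with shNT and 74.1, 72.0, 72.1 and 82.6 CPM with the shRNA. Although the groups did not overlap, the lowest shRNA sample and the highest shNT sample were almost level. The shRNA samples differed by 0.28 on the log2 scale with an SE of 0.12 (FDR = 0.129 by the quasi-likelihood test of edgeR), and the interval for Erc1, from 1.01 to 1.47-fold, lay below the 1.5-fold minimum.

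Rims1 and Rims2 encode RIM1 and RIM2, which bind Rab3 on vesicles, Munc13 and calcium channels. Rims1 (ENSMUSG00000041670; chromosome 1 from 22276332 to 22911673) had 100.8, 68.1, 96.2, 70.8 and 72.9 CPM in the shNT samples and 94.0, 113, 118 and 101 CPM in the shRNA samples. The groups overlapped through shRNA replicate 1 and shNT replicates 1 and 3. The shRNA samples differed by 0.38 on the log2 scale with an SE of 0.16 (FDR = 0.117 by the quasi-likelihood test of edgeR).

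Rims2 (ENSMUSG00000037386; chromosome 15 from 39029878 to 39513486) had 48.9, 34.98, 59.5, 45.9 and 46.7 CPM with shNT and 45.0, 61.2, 55.4 and 41.0 CPM with the shRNA. The groups overlapped throughout, and the shRNA samples differed by 0.10 on the log2 scale with an SE of 0.17 (FDR = 0.695 by the quasi-likelihood test of edgeR). A 95% interval from 0.823 to 1.40-fold bounded the difference in Rims2, the only one of the 10 whose interval included no change.

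Unc13a (ENSMUSG00000034799; chromosome 8 from 74150614 to 74195656) encodes Munc13-1, the main priming factor of forebrain synapses. It had 97.3, 78.2, 83.5, 54.9 and 68.6 CPM in the shNT samples and 113, 113, 132.5 and 152 CPM in the shRNA samples, with no overlap. Means of 76.5 ± 15.9 (shNT) and 128 ± 18.5 CPM (shRNA; SD over 5 and 4 pools) gave a difference of 0.74 (log2) with an SE of 0.18 (FDR = 0.0530 by the quasi-likelihood test of edgeR).

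Unc13b (ENSMUSG00000028456; chromosome 4 from 43071825 to 43277745) encodes Munc13-2 and was the lowest of the 10. It had 14.5, 13.4, 10.3, 7.31 and 7.78 CPM with shNT and 17.4, 15.96, 18.6 and 28.8 CPM with the shRNA. The groups did not overlap, and shRNA replicate 4, the sample with the most reads outside exons, was the highest. The shRNA samples differed by 0.92 on the log2 scale with an SE of 0.25 (FDR = 0.0630 by the quasi-likelihood test of edgeR), and 0.41 in the 6 samples named YTa31 alone (3 of each group).

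Ppfia3 (ENSMUSG00000003863; chromosome 7 from 52594496 to 52622389) encodes liprin-α3, an organizer that binds RIM and ELKS. Levels of 79.5, 54.7, 80.1, 54.8 and 61.1 CPM with shNT and of 78.8, 87.4, 101.6 and 76.0 CPM with the shRNA overlapped. The shRNA samples differed by 0.38 on the log2 scale with an SE of 0.16 (FDR = 0.129 by the quasi-likelihood test of edgeR).

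Rimbp2 (ENSMUSG00000029420; chromosome 5 from 129266276 to 129459237) encodes RIM-BP2, the bridge between RIMs and calcium channels. It had 19.5, 8.63, 16.2, 9.08 and 7.25 CPM in the shNT samples and 22.9, 21.1, 23.9 and 18.3 CPM in the shRNA samples. Only shNT replicate 1 reached above the lowest shRNA sample. The shRNA samples differed by 0.83 on the log2 scale with an SE of 0.28 (FDR = 0.0803 by the quasi-likelihood test of edgeR). By 2 other tests of the same counts, Pclo, Erc2, Unc13a, Unc13b and Rimbp2 all passed, with FDR values from 3.6e-04 to 0.0400 in edgeR's likelihood ratio test and from 3.4e-04 to 0.0375 in DESeq2. These tests called 11.2% and 10.2% of all genes higher.

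**Figure D2:**
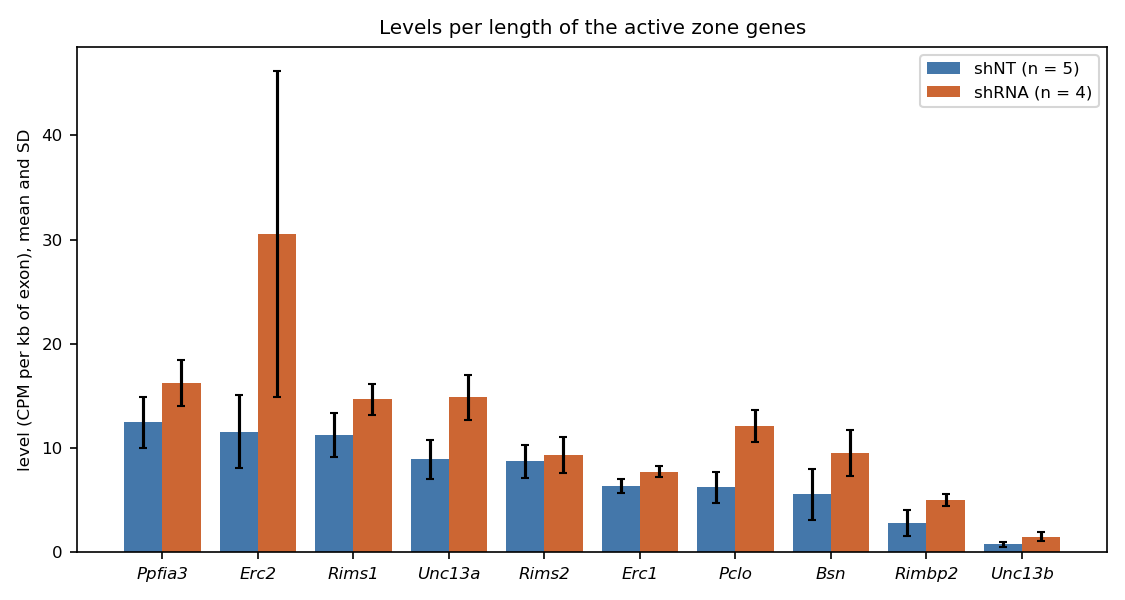
Mean level of each active zone gene per kb of exon (bars, CPM per kb, axis from 0) with SD, for 5 shNT and 4 shRNA samples, ordered by the shNT mean. Ppfia3, Erc2 and Rims1 lead in the shNT samples and Erc2 leads in the shRNA samples, while Unc13b is lowest in both.

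Compared per length, the shNT samples held most reads per kb of exon for Ppfia3 (12.5 ± 2.42 CPM per kb; SD, n = 5), Erc2 (11.6 ± 3.49) and Rims1 (11.3 ± 2.13), whose order differed between samples. Unc13a (8.93 ± 1.86) and Rims2 (8.73 ± 1.62) followed and were not separated from each other. Below them came Erc1 (6.36 ± 0.677), Pclo (6.24 ± 1.52) and Bsn (5.57 ± 2.48), and then Rimbp2 (2.85 ± 1.27) and Unc13b (0.789 ± 0.240). Rims1 exceeded Unc13a, Rims2 exceeded Erc1 and Rimbp2 exceeded Unc13b in 5 of 5 shNT samples, while the other neighbours in the order changed places in at least 1 sample. In the shRNA samples Erc2 was highest in 4 of 4 (30.5 ± 15.6 CPM per kb; SD, n = 4), and Pclo (12.1 ± 1.57) exceeded Bsn (9.51 ± 2.20) in 4 of 4. The mean of Pclo was also above those of Rims2 (9.38 ± 1.72) and Erc1 (7.74 ± 0.519), but in shRNA replicate 2 Rims2 was the higher, with 11.3 against 10.3 CPM per kb.

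Within the control group, shNT replicate 1 was the highest shNT sample in 6 of the 10 genes and shNT replicate 4 the lowest in 4. Summed over the 10 genes, the shNT samples reached 831, 680.1, 626, 513 and 583 CPM and the shRNA samples 1198, 936, 1167 and 1033 CPM (in order of replicate), so that the highest shNT sample lay below the lowest shRNA sample. The spread among shNT samples was widest in Rimbp2 and Bsn, with coefficients of variation of 44.5% and 44.4%, and narrowest in Erc1 (10.7%). Among shRNA samples it was widest in Erc2 (51.2%).

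**Figure D3:**
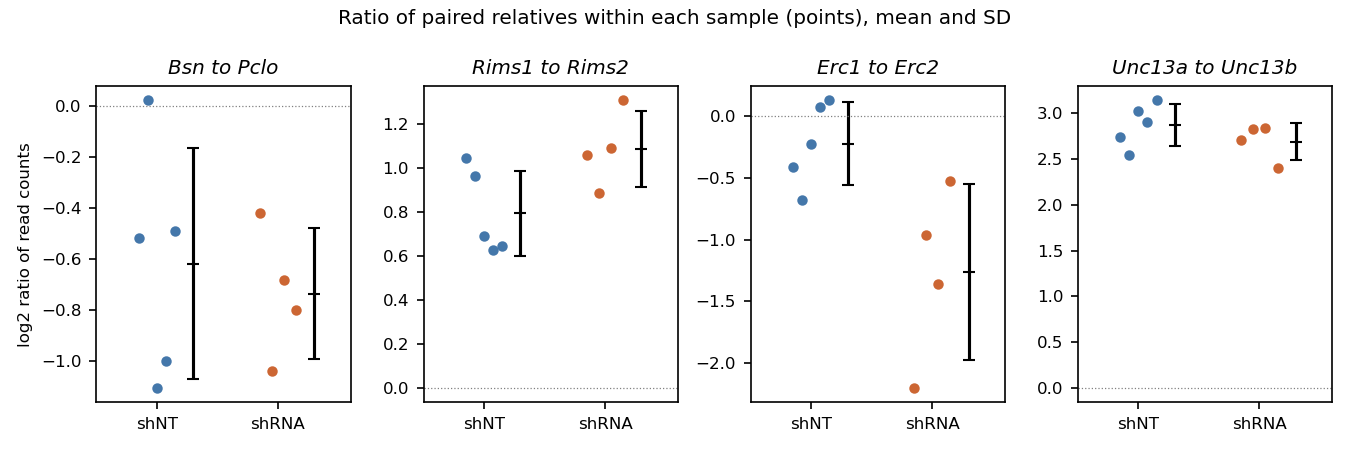
Log2 ratio of the read counts of paired relatives within each sample (points; 5 shNT and 4 shRNA samples), with mean and SD; the dotted line marks equal counts. The ratio of Erc1 to Erc2 averages -0.22 in the shNT samples and -1.26 in the shRNA samples, and the groups overlap in all 4 ratios.

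A ratio of relatives within a sample does not depend on how samples are scaled to each other. The log2 ratio of Erc1 to Erc2 was -0.41, -0.68, -0.22, 0.080 and 0.13 in shNT replicates 1 to 5 and -2.20, -0.96, -1.36 and -0.52 in shRNA replicates 1 to 4. Only shRNA replicate 4 fell within the shNT range. It differed by -1.04 between the groups (exact two-sided permutation test, p = 0.0159, adjusted p = 0.0635 by Benjamini-Hochberg over 4 ratios), which did not pass the correction. The log2 ratio of Rims1 to Rims2 averaged 0.79 ± 0.19 (SD, n = 5) and 1.09 ± 0.17 (SD, n = 4), a difference of 0.29 (exact permutation test, p = 0.0714, adjusted p = 0.143). For Bsn to Pclo the difference was -0.12 (exact permutation test, p = 0.675, adjusted p = 0.675) and for Unc13a to Unc13b it was -0.18 (exact permutation test, p = 0.262, adjusted p = 0.349). The smallest p these samples allow is 0.00794. In reads, Unc13a outnumbered Unc13b 7.32-fold with shNT and 6.45-fold with the shRNA (geometric means).

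The log2 levels of the 10 genes moved together to different degrees over the 9 samples, which include the difference between groups. Over the 45 pairs Pearson's r ranged from -0.339 (Bsn and Rims2) to 0.975 (Rims1 and Ppfia3), with a median of 0.727. Rims1, Ppfia3 and Rimbp2 formed one set of close profiles, with r of 0.912 or more, and Erc1, Unc13a and Unc13b another, with r of 0.955 or more. Rims2 followed the others least, with a median r of 0.097. Outside the list, the genes whose log2 levels were most like the mean of the 10, among 9485 genes averaging at least 10 CPM, were Syne2 (r = 0.997), Tanc2 (r = 0.995), Tnrc18 (r = 0.990), Cnksr2 (r = 0.986) and Ralgapa1 (r = 0.986). Syne2 averaged 24.9 ± 10.5 (shNT) and 66.2 ± 9.74 CPM (shRNA; SD over 5 and 4 pools). It was picked over profiles that include the group difference, so its own difference is no separate result.

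**Figure D4:**
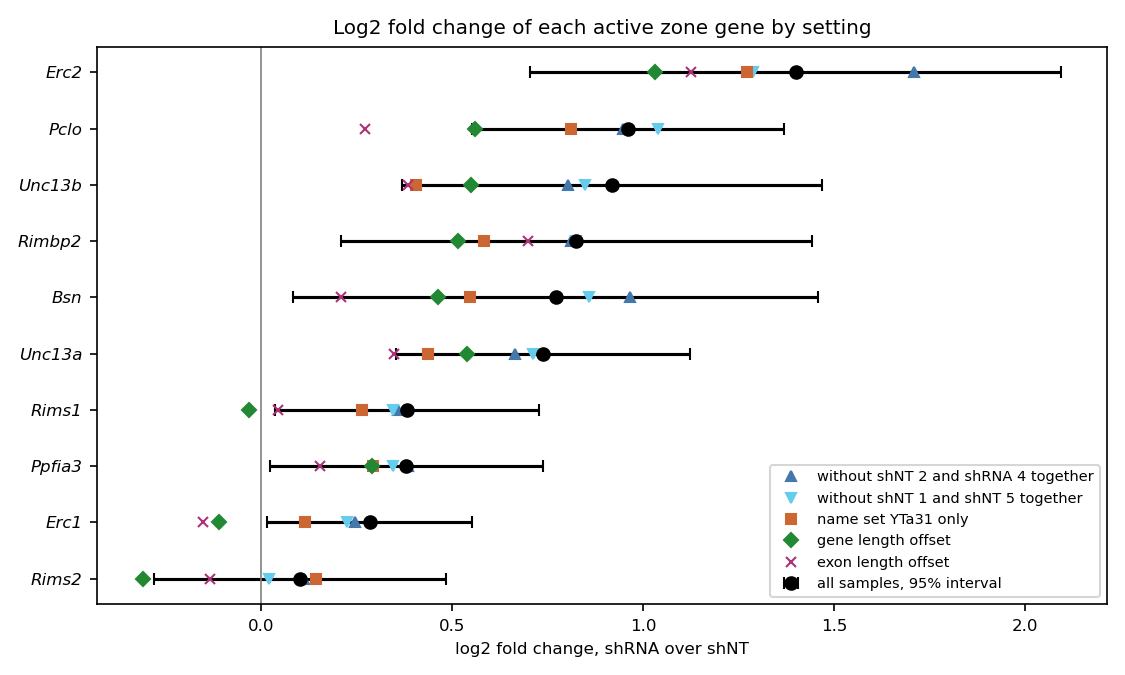
Log2 fold change (shRNA over shNT) of each active zone gene, with black points and 95% intervals for all samples and coloured marks for 2 subsets that leave out samples, the YTa31 samples alone, and offsets for gene or exon length. Only the interval of Rims2 spans 0, and all length-offset values lie below those without an offset.

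Log2 fold changes over all genes were higher in longer genes, and the active zone genes are long. At the median of the list, genes spanned 242 kb and their exons 7.91 kb, against 22.8 and 3.62 kb for genes tested. The median log2 fold change of all genes was -0.13 for the 4198 genes under 10 kb, 0.25 for the 4084 genes from 30 to 100 kb and 0.44 for the 507 genes over 300 kb. Of the 4 genes of the list over 300 kb, Erc2 (1.40) and Pclo (0.96) lay above that median, and Rims1 (0.38) and Rims2 (0.10) below it. Unc13a, which is 45.0 kb long, and Bsn, at 94.4 kb, lay above the median of their length class. With an offset for the trend with gene length the median of the 10 was 0.49, and with an offset for exon length it was 0.24. Values with the gene length offset were 1.03 for Erc2, 0.56 for Pclo, 0.55 for Unc13b, 0.54 for Unc13a, 0.52 for Rimbp2, 0.46 for Bsn and 0.29 for Ppfia3, but -0.031 for Rims1, -0.11 for Erc1 and -0.31 for Rims2. The exon length offset brought Pclo from 0.96 to 0.27, Bsn to 0.21, Unc13a to 0.35, Unc13b to 0.39 and Ppfia3 to 0.15, while Erc2 was at 1.13, Rimbp2 at 0.70, Rims1 at 0.044, Rims2 at -0.13 and Erc1 at -0.15. None of the 10 was called with either offset, and none of the genes tested were (edgeR quasi-likelihood test). When the outside-exon share was a covariate, 0 of the 10 and 0 of all 15069 genes tested were called. The median was then 0.59 for the 10 and 0.071 over all genes. With this covariate Rims1 (0.51), Rims2 (0.36), Ppfia3 (0.54) and Rimbp2 (1.02) were higher than in the main fit, and the rest of the list was lower. That share moved with the groups, and its part in the result was not tested beyond this fit.

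**Figure D5:**
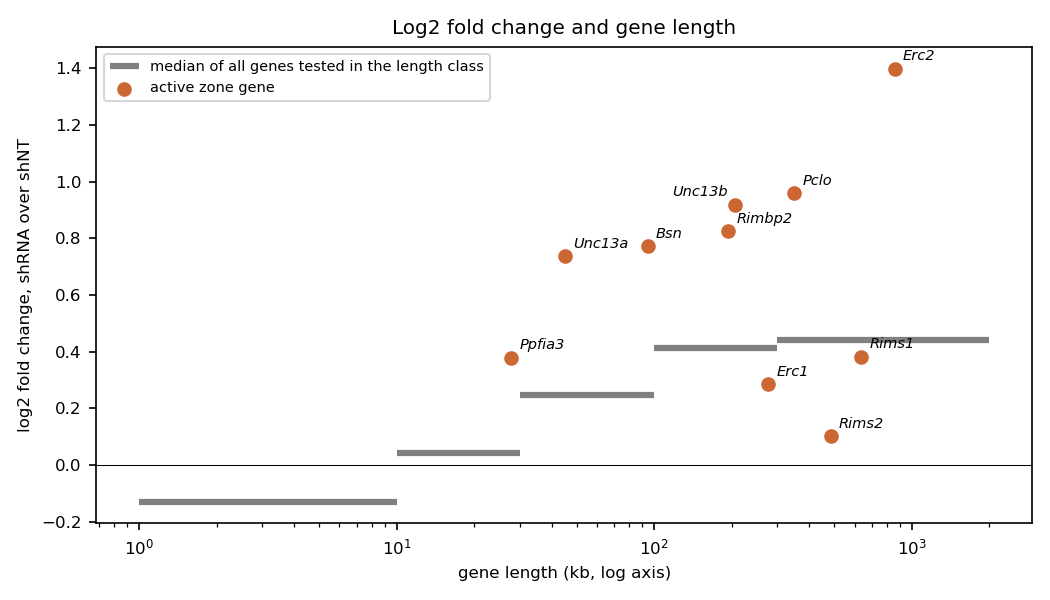
Log2 fold change (shRNA over shNT) against gene length (kb, log axis), with a point for each active zone gene and grey lines for the median of all genes tested in 5 length classes. The class medians run from -0.13 to 0.44, with Erc2 at 1.40 the farthest above its class and Rims2 at 0.10 the farthest below.

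Among 10 relatives of these genes (Rims3, Rims4, Unc13c, Unc13d, Ppfia1, Ppfia2, Ppfia4, Ppfibp1, Ppfibp2 and Tspoap1) 0 were called in either direction (edgeR quasi-likelihood test), while 4 were higher and 0 lower by an unadjusted p of 0.05 (20.7% and 13.4% of all genes), and 2 were called higher by DESeq2 (10.2% of all genes). Their median log2 fold change was 0.66, with 8 of 10 positive, and 0.27 without shRNA replicate 4. Among those averaging at least 10 CPM, the largest differences were in Ppfibp1, which encodes a liprin-β (0.96), Tspoap1, which encodes RIM-BP1 (0.93), and Ppfia1, which encodes liprin-α1 (0.50). Tspoap1 had 57.9, 74.6, 59.9, 51.6 and 51.6 CPM with shNT and 108.4, 64.4, 77.2 and 201.5 CPM with the shRNA, and shRNA replicate 4 also led in Ppfibp1 (35.8 CPM, against 8.71 to 13.1 CPM in the other shRNA samples). Ppfia1 did not overlap between groups.

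Of 30 proteins that bind or act with the scaffold, 0 were called in either direction (edgeR quasi-likelihood test), while 8 were higher and 3 lower by an unadjusted p of 0.05 (20.7% and 13.4% of all genes), and 5 were called higher and 1 lower by DESeq2 (10.2% and 5.57%). Their median log2 fold change was 0.13, close to that of all genes, with 18 positive and 12 negative. The largest differences among those averaging at least 10 CPM were in the calcium channel genes Cacna1e (1.598, FDR = 0.0630, edgeR quasi-likelihood test) and Cacna1b (0.83), which encode R-type and N-type channels, and in the receptor phosphatase gene Ptprf (0.77), whose product LAR binds liprin-α. In Cacna1e the shRNA samples had 38.3, 20.7, 24.0 and 38.7 CPM, and the shNT samples 10.7, 23.0, 6.83, 4.04 and 5.71 CPM, overlapping through shNT replicate 2. In 5 of the 30, Rab3a, Rab3b, Snap25, Ctbp1 and Lin7a, the highest shRNA sample was under the lowest shNT sample, with log2 fold changes from -0.59 to -0.25 (6.68% of all genes). In 2 of the 30, Ptprd (0.49) and Lin7c (0.45), the groups were apart in the higher direction (8.97% of all genes). Rab3a and Rab3b encode vesicle GTPases that RIMs bind, and Snap25 a fusion protein.

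Log2 fold changes of cell type markers are given here, and their part in the results above was not tested. In immunoprecipitates of pooled tissue, the number of cells of a type, their RNA per cell and the amount carried through the immunoprecipitation cannot be told apart. Over all genes tested 1.74% were called higher and 0.0133% lower (edgeR quasi-likelihood test, for all lists here). For PV INs 11 of 12 markers were tested and 0 were called, with 3 lower by an unadjusted p of 0.05 (13.4% of all genes). All 11 had negative log2 fold changes with a median of -0.37. Their summed level ran from 5017 to 8237 CPM with shNT and from 2951 to 7133 CPM with the shRNA. CA3 and CA2 pyramidal markers had a median of 0.66, with 1 of 12 called higher, and summed to 1448 to 2207 CPM and 2139 to 2658 CPM. DG granule cell markers had a median of 0.96, with 0 of 7 called, and summed to 130.6 to 214 CPM and 214.6 to 254.8 CPM. Astrocyte markers had a median of 1.38 (0 of 10 called), and without shRNA replicate 4 their summed level in the shRNA samples ran from 1459 to 1723 CPM, against 1122 to 1572 CPM with shNT. The medians were 0.78 for oligodendrocytes (0 of 8 called), 1.11 for oligodendrocyte precursors (4 of 6 called higher), 0.21 for microglia (0 of 8), 0.50 for endothelial cells (0 of 8), 0.56 for other interneurons (2 of 9 called higher) and 0.98 for nuclear-retained noncoding RNAs (0 of 7). At an FDR limit of 0.1, 9 of 10 astrocyte, 6 of 6 precursor, 6 of 12 pyramidal and 4 of 8 oligodendrocyte markers passed in the higher direction (12.7% of all genes). So did 3 of 7 DG granule cell, 2 of 9 other interneuron, 2 of 8 microglia and 1 of 7 nuclear-retained genes. Of the PV IN and endothelial markers 0 did. The groups were apart in the higher direction in 5 of 6 precursor, 5 of 12 pyramidal, 3 of 7 DG granule cell and 3 of 8 microglia markers (8.97% of all genes). That held for 3 of 9 other interneuron, 2 of 10 astrocyte and 2 of 8 oligodendrocyte markers, and for 0 in the remaining lists. Without shRNA replicate 4 the endothelial median turned to -0.91, with summed levels of 57.3 to 126.1 CPM in the other shRNA samples against 91.9 to 284 CPM with shNT. Leaving out that sample also gave medians of 0.34 for astrocytes, 0.35 for the nuclear-retained RNAs and -0.16 for PV INs. Other medians were 1.03 for oligodendrocyte precursors, 0.87 for DG granule cells, 0.64 for oligodendrocytes and 0.50 for pyramidal neurons. Those of other interneurons, microglia and the 10 active zone genes were 0.44, 0.18 and 0.65. The lists of other interneurons, pyramidal neurons and oligodendrocyte precursors then held 0 calls, with 142 of 14515 genes called higher. With shNT replicate 2 also left out, these 3 lists held 2 of 9, 3 of 12 and 4 of 6 calls (4.75% of all genes). In that fit 6 of 8 oligodendrocyte markers, 2 of 7 nuclear-retained RNAs and 1 of 7 DG granule cell markers were also called higher. The lists of PV INs, astrocytes, microglia and endothelial cells held 0 calls.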

How the data were processed

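Ribosome-associated RNA was immunoprecipitated with the HA tag. The authors used STAR against the transcriptome of mm9 and HTSeq 0.6.0 for unstranded counting, and deposited raw counts per gene. The annotation they counted on is not given in the sources used here. Totals of reads outside exons, ambiguous or aligned more than once were kept out of library sizes. GENCODE vM1 annotation of the same build named 37205 of 37620 identifiers.

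A gene was kept if any 1 sample had 1 CPM or more (15069 genes). After TMM normalization, the test was that of edgeR 4.0.16 (quasi-likelihood, condition only) in R 4.3.3, at an FDR under 0.05 over all genes and a change of at least 1.5-fold. DESeq2 1.42.0 and limma 3.58.1 were alternatives, the latter as voom with sample quality weights (limma voom below). The functions were tested on simulated counts. Single values were compared by exact permutation over 126 splits. Levels per kb use summed exon length. The log2 levels use a prior count of 2.

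All 10 genes were named, together with genes past the threshold and otherwise the 3 largest differences (mean of at least 10 CPM) in lists of relatives and binding partners, and the 5 most alike in profile. The genes, lists and most alternatives were chosen with earlier results of these data known, and the fit without shNT replicates 1 and 5 and the list medians without shRNA replicate 4 were added after seeing the data. The labels do not say what separates samples named YTa31 from YTa32, and p-values measure the spread between pools of mice. Whether replicate numbers pair the samples is not stated, and the main fit did not pair them.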

Additional observations from a re-analysis of the deposited data

Results flagged for a closer look

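In 5 of 54 sets of 4 or 5 values, the highest sample lay far above the others by the test of Dixon, and chance flags about 1 in 20 sets (2.7 of 54). No value of the 10 active zone genes or of their 4 ratios was among these. In shRNA replicate 4 the astrocyte markers summed to 5968 CPM, against 1459 to 1723 CPM in the other shRNA samples, and the endothelial markers to 757.5 CPM, against 57.3 to 126.1 CPM. In shNT replicate 2 the oligodendrocyte markers summed to 2406 CPM (775 to 1216 CPM in the other shNT samples), the nuclear-retained noncoding RNAs to 15050 CPM (1673 to 3028 CPM), and reads outside exons made up 18.6% of uniquely aligned reads (9.76% to 11.3%). With both samples left out, Pclo differed by 0.95 on the log2 scale (FDR = 0.0323) and Erc2 by 1.71 (FDR = 0.0236, both by the quasi-likelihood test of edgeR).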

How the results depend on the processing

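Over 27 alternatives all 10 genes kept a positive log2 fold change except Rims1, Rims2 and Erc1, which were negative in 1, 4 and 2 of them. The median of the 10 lay between 0.24 (exon length offset) and 0.92 (limma voom), and between 0.56 and 0.88 when single samples were dropped. Beside the 1 active zone gene called, the count was 0 with upper quartile scaling, library size only, filterByExpr, the replicate block, the YTa31 samples alone, either length offset, the covariate for reads outside exons, or without shNT replicates 1 and 5, 2 with no filter on low counts, the name set as a block, or without shNT replicate 2 and shRNA replicate 4, 5 with the likelihood ratio test, the exact test and DESeq2, and 7 with limma voom. Dropping single samples gave 0 to 5, with 0 when shNT replicate 3, 4 or 5, or replicate 1 or 3 of the shRNA group, was dropped, 2 when shNT replicate 2 or shRNA replicate 2 was, and 5 when shNT replicate 1 was. Over all genes (262 higher, 2 lower) the same settings that gave 0 calls in the list gave 0 and 0, except the replicate block (29 and 0). Others gave 501 and 14 (no filter), 1688 and 542 (likelihood ratio test), 1659 and 534 (exact test), 1532 and 833 (DESeq2), 2301 and 618 (limma voom) and 678 and 2 (without shNT replicate 2 and shRNA replicate 4), with 1 lower under DESeq2 size factors and under the name set as a block. Genes called higher were 376 with the name set as a block and 199 with DESeq2 size factors. Left-out samples gave 0 to 1007 higher and 0 to 410 lower. The genes called higher were 481 without shNT replicate 2, 353 without shRNA replicate 2 and 1007 without shNT replicate 1. Genes without overlap, 5 among the 10, were 2 with the gene length offset and 1 higher and 1 lower with the exon length offset, and 4 to 6 with each sample left out. The share of all genes without overlap in these settings is not given here. Relatives called higher were 1 with no filter, limma voom and the name set as a block, 2 with the likelihood ratio test, exact test and DESeq2, and 0 to 1 with each sample left out. Binding partners called higher were 5 with the likelihood ratio test, exact test and DESeq2 (1 lower), 9 with limma voom, 2 without shNT replicate 2 and shRNA replicate 4, and 0 to 2 with each sample left out. The log2 ratio differences of relatives passed the correction in none of 14 alternatives. With each sample left out they lay between -0.24 and 0.043 (Bsn to Pclo), 0.22 and 0.36 (Rims1 to Rims2), -1.29 and -0.73 (Erc1 to Erc2) and -0.26 and -0.084 (Unc13a to Unc13b). Deviations of same-numbered samples correlated at -0.267, -0.641, 0.486 and -0.181. Same-numbered samples also share the name set (YTa31 or YTa32), and whether the numbers pair samples otherwise is not stated. The cause of these changes was not tested. The lowest count of the 10 genes in any sample was 145.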
